A study of Oryza sativa with 23 samples.

Results

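The genes described here are 5 heavy metal P-type ATPases of rice (Oryza sativa): OsHMA2 (OS06G0700700), OsHMA3 (OS07G0232900), OsHMA4 (OS02G0196600), OsHMA5 (OS04G0556000) and OsHMA9 (OS06G0665800). They were chosen by identifier and family, though with earlier results of these data known, and are 5 of the 35679 genes in the files. By the numbering of their identifiers OsHMA2 and OsHMA9 lie on chromosome 6, OsHMA3 on chromosome 7, OsHMA4 on chromosome 2 and OsHMA5 on chromosome 4. RNA was sequenced from whole roots and from L2 leaves of 2 varieties, Hacha (from CRM 53 and IR 64) and Lachit (from CRM 13-3241 and Kalinga 2). All plants were 11 days old and grew in a full-strength nutrient solution with 50 µM iron as sodium EDTA. From day 9, for 2 days, the control groups stayed in this solution at pH 6.2, and the excess-iron groups received 15 mM iron sulfate on top of it at pH 5.2. Iron, sulfate and acidity therefore changed together and cannot be told apart. The 23 libraries form 8 groups of variety, organ and solution, with 3 libraries each except excess-iron roots of Hacha with 2. The labels do not say whether the libraries of a group came from separate plants, so the spread between them may be technical.

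Heavy metal P-type ATPases are membrane pumps that use ATP to move metal ions out of the cytoplasm, either out of the cell or into an organelle. In rice, OsHMA2 moves zinc and cadmium across the plasma membrane and takes part in their transfer from root to shoot, whereas OsHMA3 stores cadmium and zinc in the vacuoles of root cells. OsHMA4 loads copper into root vacuoles, OsHMA5 passes copper to the xylem for transport to the shoot, and OsHMA9 exports copper, zinc, cadmium and lead from cells. The comparisons ask how the level of each transcript depends on variety, organ and solution.

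Each library held 16659607 to 33386840 estimated counts. Levels are given as TPM, the share of a library's transcripts after division by transcript length, which is the scale for comparing genes. Fold changes and tests come from edgeR's quasi-likelihood test on counts scaled so that the typical gene does not change (TMM), with Benjamini-Hochberg adjustment over all genes tested, and a gene was called at an adjusted p below 0.05. With library totals alone, the median log2 fold change of all genes under excess iron was -0.31 in root and -0.08 in leaf of Hacha, and -0.10 in root and 0.29 in leaf of Lachit. It ranged from -0.79 to -0.17 for leaf against root and reached 0.46 for the varieties in excess-iron leaf. A change in TPM and a fitted fold change can therefore differ by about this much, and all fitted changes are relative to the typical gene. Both leaf libraries named next stood apart from their groups. On the first principal component of leaf (55.7% of the variance), Hacha control library 1 lay at 56.8, while the other 2 lay at 148 and 143. Lachit excess-iron library 3 lay at 39.0, on the side of the controls, and the other 2 at -57.4 and -109. Values without both libraries are given where they matter, an alternative added after the data were seen. The organ labels could not be checked against marker genes, because the files and the reference table used here do not pair identifiers with gene names.

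All 5 genes were lower in leaf than in root of control plants, and in excess-iron leaves OsHMA4 and OsHMA9 were called higher than in control leaves of both varieties. In control Hacha, 5 of 5 were called lower in leaf, where 67% of all genes were called and 37.3% lower. In control Lachit, 5 of 5 were called lower in leaf, where 66.1% of all genes were called, 38.9% lower and 27.3% higher. With library totals alone, lower calls made up 73.1% of all calls in control Hacha in place of 55.7%, and 70.7% in place of 58.8% in control Lachit. The median log2 difference of leaf from root was -3.79 for the 5 genes and -0.15 for all genes in control Hacha, and -4.86 and -0.24 in control Lachit. Under excess iron, Hacha had 3 of 5 called lower and 1 higher in leaf (53.7% of all genes called, 27.4% lower), and Lachit had 4 of 5 called lower (58.1% called, 30.2% lower). For excess iron against control in Hacha root, 1 gene was called higher and 1 lower, beside 62.3% of all genes (29.6% higher and 32.7% lower). In Lachit root 2 were called lower, beside 58.7% of all genes (29.4% higher and 29.3% lower). In Hacha leaf 2 were called higher, beside 65.3% of all genes (32.4% higher and 32.9% lower). In Lachit leaf 2 were called higher, beside 38.7% of all genes (19.7% higher). Calls for 2 of 5 genes are no more than the background share in 3 of these 4 comparisons and close to it in Lachit leaf. The median log2 change of the 5 was -0.07 in root and 1.28 in leaf of Hacha, beside -0.05 and 0 over all genes, and -0.74 in root and 1.36 in leaf of Lachit, beside 0 and 0.02. Groups whose TPM do not overlap are common with so few libraries: under excess iron this held for 78.7% of all genes in root and 69.3% in leaf of Hacha, and for 62.3% and 54.1% in Lachit. Between the varieties it held for 48% in control root, 63.3% in excess-iron root, 51.5% in control leaf and 49.6% in excess-iron leaf, and between excess-iron leaf and root of Hacha for 66.6%.

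**Figure D1:**
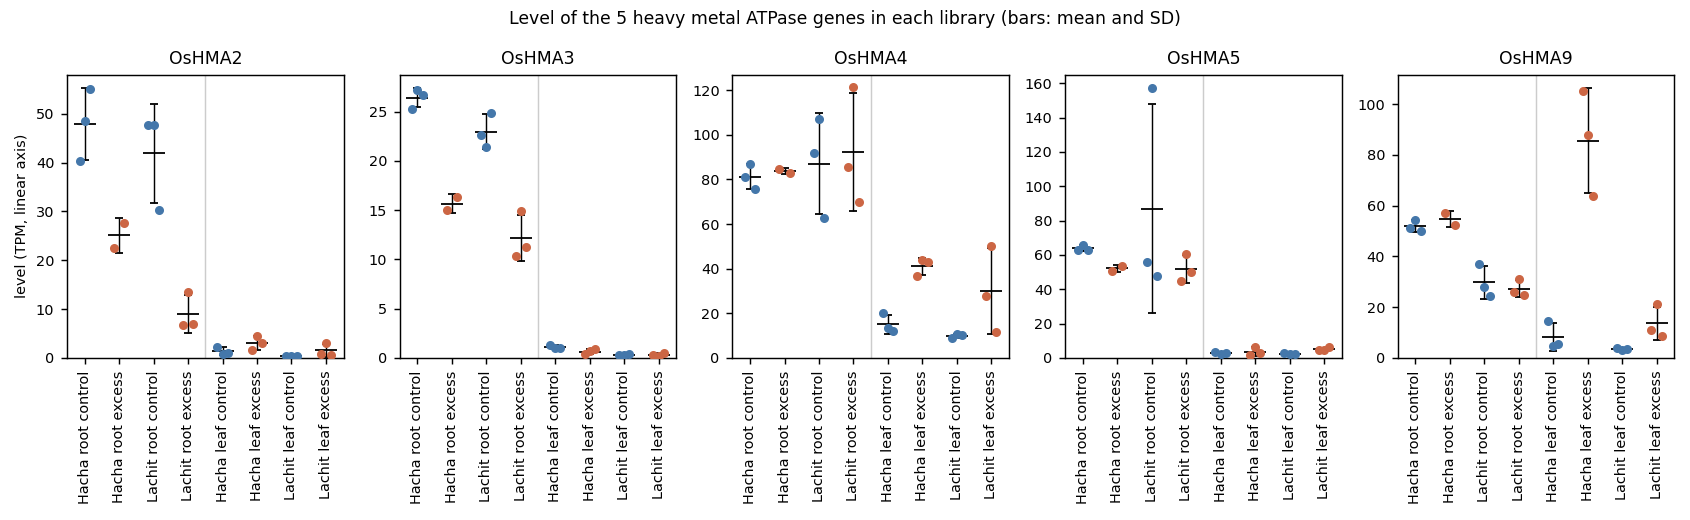
Level of each of the 5 genes in TPM (linear axis) in all 23 libraries, by group; points are libraries, blue control and red excess iron, and bars give the mean and SD. Root groups stand left of the grey line, and OsHMA9 is the gene whose highest group mean, 85.6 TPM, is in leaf.

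OsHMA2, the zinc and cadmium pump of root-to-shoot transfer, was a root transcript that fell under excess iron in Lachit. Its level in control roots was 40.3, 48.5 and 55.0 TPM in Hacha and 47.7, 47.7 and 30.2 TPM in Lachit. In excess-iron roots it was 22.6 and 27.6 TPM in Hacha and 6.67, 13.5 and 6.85 TPM in Lachit. The control roots of the varieties overlapped, and each excess-iron group lay below its controls, with Lachit below Hacha. In Lachit root the fall was 4.2-fold (log2 -2.07, SE 0.25, adjusted p = 3.75e-05, edgeR), lower in 3 of 3 libraries and between -2.42 and -1.90 over all alternatives. In Hacha root the log2 fold change was -0.55 (SE 0.27) and missed the threshold with an adjusted p = 0.0993 in edgeR's test. It was -0.81 and called when library totals alone set the scale (adjusted p = 0.0244, edgeR). Limma called it on log2(TPM + 1) (-0.90, adjusted p = 0.0164) and on log2(TPM + 0.1) (-0.93, adjusted p = 0.0202). DESeq2 did not call it. The test of the difference between the root responses called OsHMA2 as the 1 gene of the 5 (19.4% of all genes were called, 6.98% in this direction), with a lower response in Lachit (difference -1.52 on the log2 scale, SE 0.36, adjusted p = 0.0149, edgeR). Without Hacha excess-iron root library 2 the difference was -1.32 with an adjusted p = 0.0757 by the same edgeR test, where the remaining library is assumed to vary like the other groups, and with both organs in 1 fit it was -1.57 (adjusted p = 0.164).

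Leaf levels of OsHMA2 were far lower. They were 2.27, 0.846 and 0.962 TPM in control leaves of Hacha and 0.467, 0.348 and 0.463 TPM in those of Lachit. In excess-iron leaves they were 1.70, 4.46 and 3.03 TPM in Hacha and 0.841, 3.06 and 0.685 TPM in Lachit, overlapping the controls in Hacha and lying above them in Lachit. The log2 fold changes of 1.28 in Hacha leaf (SE 0.60) and 1.61 in Lachit leaf (SE 0.64) had adjusted p-values of 0.0812 and 0.0684 in edgeR's test, and without both leaf libraries that stood apart they were 1.75 and 2.05 with adjusted p-values of 0.0205 and 0.0143. Both values rested in part on excess-iron library 2: without it the Lachit value was 0.50 (adjusted p = 0.467, edgeR) and the Hacha value 0.86 (adjusted p = 0.272, edgeR). Counts of OsHMA2 in leaf were low, at 15 to 18 per control library of Lachit and 33 to 69 per control library of Hacha. The root and leaf responses differed in both varieties. The leaf response exceeded the root response by 3.73 on the log2 scale in Lachit (SE 0.71, adjusted p = 0.000614, edgeR; 2.54 and still called without excess-iron leaf library 2) and by 1.77 in Hacha (SE 0.69, adjusted p = 0.044, edgeR). The Hacha call was lost when any 1 of 13 of the 23 libraries was left out, with an adjusted p of up to 0.144 in edgeR's test, and without a filter on low counts (adjusted p = 0.056).

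In the order of group means, OsHMA2 ran from control root of Hacha (47.9 ± 7.3 TPM, SD, n = 3) and of Lachit (41.9 ± 10, n = 3), which did not differ beyond their spread, through excess-iron root of Hacha (25.1 ± 3.6, n = 2) and of Lachit (9.01 ± 3.9, n = 3). The leaf groups followed, with excess-iron Hacha (3.06 ± 1.4), excess-iron Lachit (1.53 ± 1.3), control Hacha (1.36 ± 0.79) and control Lachit (0.426 ± 0.068, n = 3 each). Among the leaf groups, neighbours overlapped except the last pair. Leaf of control plants was 22.6-fold lower than root in Hacha and 69.3-fold lower in Lachit, and the adjusted p in edgeR's test was 3.28e-07 and 2.23e-08.

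OsHMA3, the vacuolar cadmium pump of roots, fell in roots of both varieties and had the lowest mean of the 5 in each leaf group. Control roots held 25.3, 27.2 and 26.7 TPM in Hacha and 22.6, 21.4 and 24.9 TPM in Lachit. Excess-iron roots held 15.0 and 16.3 TPM in Hacha and 10.4, 14.9 and 11.3 TPM in Lachit. No excess-iron root library reached its controls in either variety. The fall was 1.71-fold in Lachit (log2 -0.77, SE 0.12, adjusted p = 0.000246, edgeR) and 1.29-fold in Hacha (log2 -0.37, SE 0.14, adjusted p = 0.0338, edgeR). In Hacha the call was lost in edgeR's test when Hacha control library 1, 2 or 3 or Lachit control library 1 was left out, with an adjusted p of up to 0.115. Without Hacha excess-iron library 1 the log2 value was -0.27, the smallest fall with any library left out. That fit left 1 library in the group, so no p-value is given for it. The call was also lost in edgeR's test without a filter on low counts (log2 -0.35, adjusted p = 0.0583) and with both organs in 1 fit (log2 -0.37, adjusted p = 0.148). Scaling by library totals gave -0.63 and an adjusted p = 0.00196 by edgeR. The difference of the root responses was -0.40 (SE 0.18) with an adjusted p = 0.148 in edgeR's test.

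In leaves, OsHMA3 differed more between the varieties than between the solutions in edgeR's fit of that organ. Control leaves held 1.33, 0.960 and 0.952 TPM in Hacha and 0.279, 0.296 and 0.378 TPM in Lachit. Excess-iron leaves held 0.385, 0.660 and 0.850 TPM in Hacha and 0.316, 0.210 and 0.458 TPM in Lachit. Hacha lay above Lachit in every control library, the excess-iron groups overlapped, and excess-iron Hacha lay below its controls. In control leaves OsHMA3 was 3.36-fold lower in Lachit (log2 -1.75, SE 0.31, adjusted p = 0.00237, edgeR) and was the 1 gene of the 5 called there, where 19% of all genes were called and 8.65% lower. In excess-iron leaves it was 2.45-fold lower (log2 -1.30, SE 0.31, adjusted p = 0.00799, edgeR), but library totals gave -0.88 with an adjusted p = 0.0653. The call was also lost by limma on log2(TPM + 1) (adjusted p = 0.0781) and on log2(TPM + 0.1) (adjusted p = 0.0717). These leaf values rest on 13 to 35 counts per Lachit library, and the leaf response to excess iron was not called in Hacha (log2 -0.70, SE 0.30, adjusted p = 0.0601, edgeR) or in Lachit (log2 -0.25, SE 0.32, adjusted p = 0.572, edgeR). The Hacha response was called by DESeq2 (adjusted p = 0.0442) and by limma on log2(TPM + 1) (adjusted p = 0.0283). With both organs in 1 fit edgeR called it too (log2 -0.76, adjusted p = 0.00337). Limma on log2(TPM + 0.1) and edgeR with library totals did not call it. Reads that differ from the reference sequence may be matched less often in 1 variety, which was not tested here or in the other comparisons of varieties. The order of OsHMA3 in TPM was control root of Hacha (26.4 ± 0.99 TPM, SD, n = 3), control root of Lachit (23.0 ± 1.8, n = 3), excess-iron root of Hacha (15.7 ± 0.97, n = 2) and of Lachit (12.2 ± 2.4, n = 3), none overlapping the next, and then the leaf groups at a mean of 1.08 TPM or less. The fitted log2 difference of Lachit from Hacha in control root was -0.05 (SE 0.12) and was not called (adjusted p = 0.78, edgeR). Leaf of control plants was 15.2-fold lower than root in Hacha and 51.6-fold lower in Lachit, with adjusted p-values of 7.66e-12 and 4.37e-13 in edgeR's test.

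**Figure D2:**
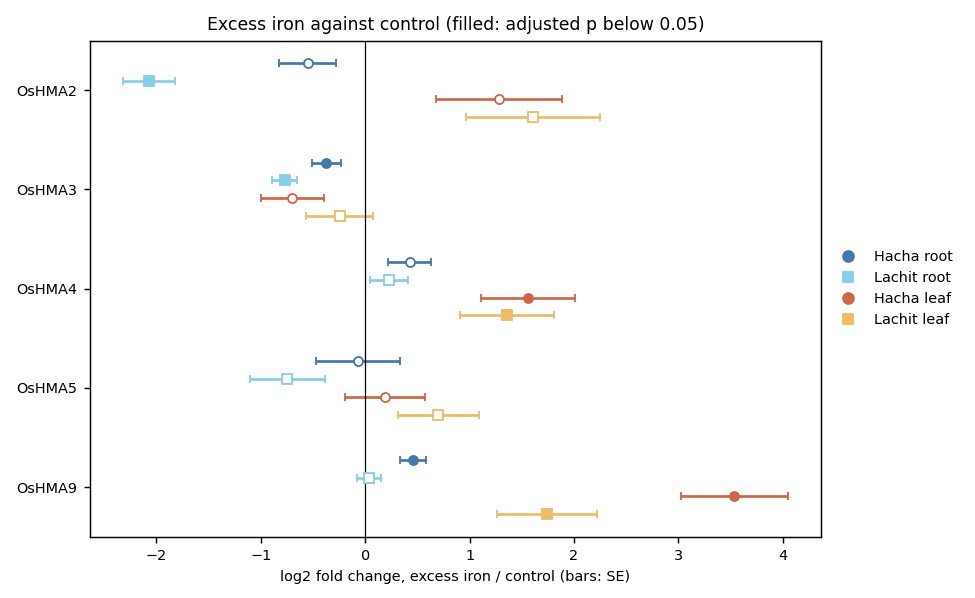
Fitted log2 fold change of excess iron against control for each gene in the 4 combinations of variety and organ; bars are SE, filled symbols passed an adjusted p below 0.05 in edgeR's test and open ones did not. OsHMA2 in Lachit root, at -2.07, and OsHMA9 in Hacha leaf, at 3.54, stand at the ends of the range.

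OsHMA4, the pump that stores copper in root vacuoles, had the highest mean root level of the 5 in each group, though by 87.1 to 87.0 TPM over OsHMA5 in control Lachit, and it rose in leaves of both varieties. Root levels were 81.1, 87.0 and 75.7 TPM in control Hacha, 84.8 and 82.9 TPM in excess-iron Hacha, 91.8, 107 and 62.6 TPM in control Lachit and 85.4, 121 and 70.0 TPM in excess-iron Lachit. All 4 root groups overlapped their neighbours in the order of means, which lay between 81.3 and 92.3 TPM. The root log2 fold changes of 0.43 in Hacha (SE 0.20) and 0.23 in Lachit (SE 0.18) had adjusted p-values of 0.0896 and 0.311 in edgeR's test.

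Leaf levels of OsHMA4 were 19.9, 13.3 and 11.9 TPM in control Hacha and 36.5, 43.8 and 42.8 TPM in excess-iron Hacha. In Lachit they were 8.88, 10.7 and 10.3 TPM in control and 27.8, 50.0 and 11.6 TPM under excess iron. In TPM every excess-iron library lay above its controls, narrowly so for Lachit library 3. In CPM (counts divided by library size with TMM scaling), closer to the scale of the test, Lachit library 3 showed no rise. It stood at 25.8 CPM, below its controls at 26.4, 33.9 and 33.0 CPM. The rise was 2.94-fold in Hacha leaf (log2 1.56, SE 0.45, adjusted p = 0.0108, edgeR) and 2.57-fold in Lachit leaf (log2 1.36, SE 0.45, adjusted p = 0.0341, edgeR). In Lachit the call was lost without excess-iron library 1 or 2 or any control library, with log2 values of 0.68 to 1.41 and an adjusted p of up to 0.185 in edgeR's test. In Hacha it was lost without control library 3 (adjusted p = 0.0505, edgeR). Without both leaf libraries that stood apart, the rises were 1.70 and 1.82 with adjusted p-values of 0.00039 and 0.000411 by edgeR. The varieties did not differ in leaf past the threshold: the log2 difference of Lachit from Hacha was -0.57 (SE 0.44) in control and -0.76 (SE 0.44) under excess iron, with adjusted p-values of 0.413 and 0.183 in edgeR's test. Leaf was 3.37-fold lower than root in control Hacha and 6.17-fold lower in control Lachit (adjusted p = 0.00041 and 7.45e-06, edgeR).

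OsHMA5, the copper pump of xylem loading, was called by edgeR in no comparison of treatments or varieties, and its fitted fall in Lachit root rested on 1 control library. Its root levels were 63.0, 66.0 and 62.7 TPM in control Hacha and 50.7 and 53.5 TPM in excess-iron Hacha. In Lachit they were 56.0, 157 and 47.7 TPM in control and 45.0, 60.6 and 49.8 TPM under excess iron. Control library 2 of Lachit root stood far above every other library. The log2 fold change was -0.07 in Hacha root (SE 0.40) and -0.74 in Lachit root (SE 0.36), with adjusted p-values of 0.894 and 0.095 in edgeR's test. Without Lachit control library 2 the Lachit value was -0.005 (adjusted p = 0.984, edgeR). The remaining controls stood at 131 and 121 CPM, and the excess-iron libraries at 105, 142 and 130 CPM. Without Lachit control library 1 or 3, and so with more weight on library 2, the Lachit value was -0.99 or -1.02 and was called (adjusted p = 0.0321 and 0.0249, edgeR). DESeq2 on all libraries called it (log2 -0.77, adjusted p = 0.0476). In leaves the levels were 3.37, 2.40 and 2.70 TPM in control Hacha, 1.47, 6.57 and 2.93 TPM in excess-iron Hacha, 2.80, 2.02 and 2.07 TPM in control Lachit and 4.55, 4.62 and 6.11 TPM in excess-iron Lachit. The excess-iron leaves lay above the controls in Lachit and on both sides of them in Hacha, and the log2 changes of 0.70 (SE 0.39) and 0.19 (SE 0.38) missed the threshold with adjusted p-values of 0.174 and 0.682 in edgeR's test. The leaf and root responses of Lachit differed by 1.51 (SE 0.55, adjusted p = 0.0444, edgeR), and this fell to 0.78 with an adjusted p = 0.213 by edgeR without Lachit root control library 2. The call was lost when any 1 of 17 libraries was left out. Leaf was 13.8-fold lower than root in control Hacha and 29.1-fold lower in control Lachit (adjusted p = 2.81e-07 and 1.96e-08, edgeR). In Lachit the log2 difference went from -4.86 to -4.13 without root control library 2 and was still called.

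OsHMA5 is the 1 gene of the 5 with more than 1 transcript in the files, and the share of its longer transcript was lower in all excess-iron libraries than in their controls, a difference that no test here could call. The longer transcript, OS04T0556000-01, has 3195 bases and the shorter, OS04T0556000-02, has 1942. The longer one carried 61.2, 66.9 and 68.5% of the gene's TPM in control root of Hacha and 41.3 and 46.8% in excess-iron root. In Lachit root the shares were 72.6, 67.2 and 68.8% in control and 40.0, 55.5 and 48.5% under excess iron. In Hacha leaf they were 65.2, 82.3 and 63.8% in control and 22.8, 35.1 and 46.8% under excess iron, and in Lachit leaf 50.1, 56.0 and 56.3% against 21.9, 32.8 and 45.1%. Every excess-iron library lay below all controls of its variety and organ, also in Lachit root, where the gene's level in control library 2 stood apart but its share did not. The mean difference was -21.5 percentage points in root and -35.5 in leaf of Hacha, and -21.5 in root and -20.9 in leaf of Lachit. An exact two-sided permutation test, with the smaller tail doubled, gave p = 0.2 for Hacha root (n = 2 and 3) and p = 0.1 for each of the others (n = 3 and 3), the smallest values this form of the test can give with 10 and 20 splits, so none could pass the threshold. Among 4810 genes with 2 or more transcripts, the share of the lowest-numbered transcript was lower without overlap for 42.1% in root and 43.6% in leaf of Hacha, for 25% and 10.4% in Lachit, and for 2.18% in all 4. The change was noticed in these data and not chosen beforehand. In TPM, the longer transcript went from 41.9 ± 3.0 (SD, n = 3) to 23.0 ± 2.9 (n = 2) in Hacha root and the shorter from 22.0 ± 2.3 to 29.1 ± 0.93. In Lachit root the longer went from 59.7 ± 40 to 25.3 ± 7.9 TPM and the shorter from 27.3 ± 21 to 26.5 ± 0.78 (n = 3 each). In Hacha leaf the longer went from 1.97 ± 0.24 to 1.34 ± 0.99 TPM and the shorter from 0.858 ± 0.39 to 2.32 ± 1.7, and in Lachit leaf both means were higher under excess iron, from 1.23 ± 0.15 to 1.76 ± 0.90 for the longer and from 1.06 ± 0.29 to 3.34 ± 0.23 for the shorter (n = 3 each). The files do not hold the uncertainty of sharing reads between the transcripts of a gene, and leaf shares rest on 26.8 to 224 estimated counts of the longer transcript per library.

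**Figure D3:**
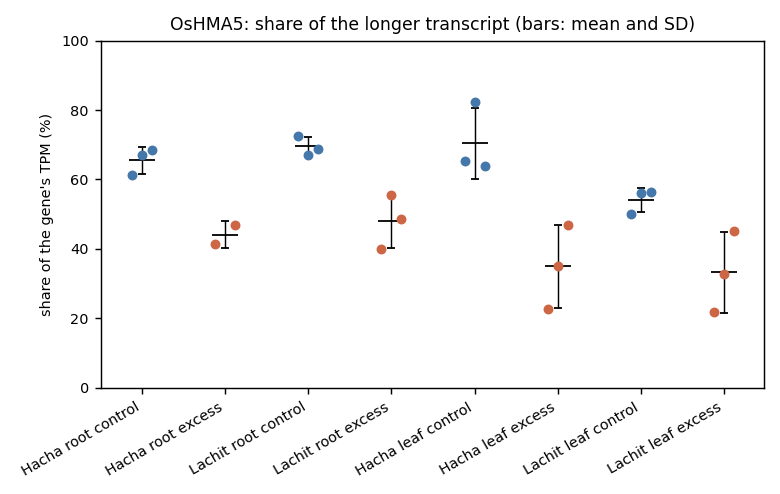
Share of the longer OsHMA5 transcript in the gene's summed TPM, in percent, for all 23 libraries by group; points are libraries, blue control and red excess iron, and bars give the mean and SD. In each variety and organ the excess-iron libraries lie below all controls, with means of 33.3 to 48.0% against 54.1 to 70.4%.

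OsHMA9, the exporter of copper, zinc, cadmium and lead, had the largest fitted leaf response of the 5, by a clear margin in Hacha only. In Lachit leaf the log2 values were 1.74 (SE 0.48) for OsHMA9, 1.61 (SE 0.64) for OsHMA2 and 1.36 (SE 0.45) for OsHMA4. The ranking was not tested. Leaf levels were 14.7, 4.73 and 5.41 TPM in control Hacha and 105, 87.7 and 63.8 TPM under excess iron. In Lachit leaf they were 3.73, 3.06 and 3.54 TPM in control and 11.1, 21.0 and 8.51 TPM under excess iron. The excess-iron libraries lay above all controls in both varieties, and every excess-iron Hacha leaf lay above every other library of this gene in either organ. The rise was 11.6-fold in Hacha leaf (log2 3.54, SE 0.51, adjusted p = 0.00016, edgeR) and 3.34-fold in Lachit leaf (log2 1.74, SE 0.48, adjusted p = 0.016, edgeR). Hacha leaf stayed called under every alternative run, with values from 3.15 to 4.16, the highest without control library 1, which stood apart. The Lachit call was lost in edgeR's test without excess-iron library 2 (log2 1.18, adjusted p = 0.0725) and without control library 2 or 3 (adjusted p = 0.0611 and 0.0529).

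The rise of OsHMA9 in leaf was smaller in Lachit by 1.79 on the log2 scale (-1.79, SE 0.66), which missed the threshold with an adjusted p = 0.0837 in edgeR's test. None of the 5 genes was called for the difference of the leaf responses by edgeR, where 16.5% of all genes were (8.49% higher and 7.96% lower). At an unadjusted p below 0.05 the edgeR count was 1, OsHMA9. DESeq2 called 1 (OsHMA9, -1.81, adjusted p = 0.0355), limma on log2(TPM + 1) called 1 and limma on log2(TPM + 0.1) called 0. Without both leaf libraries that stood apart the difference was -2.03 with an adjusted p = 0.0302 by edgeR.

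Under excess iron OsHMA9 was 8.09-fold lower in Lachit leaf than in Hacha leaf (log2 -3.02, SE 0.50, adjusted p = 0.00111, edgeR), one of 2 genes called in a comparison that called 42.6% of all genes and 20.1% lower. In control leaf the difference was -1.22 (SE 0.47, adjusted p = 0.0996, edgeR), with all 3 Hacha libraries above all 3 Lachit ones, and -0.61 without both libraries that stood apart. In roots the levels were 51.3, 54.4 and 50.0 TPM in control Hacha, 56.9 and 52.4 TPM in excess-iron Hacha, 37.1, 27.9 and 24.2 TPM in control Lachit and 26.1, 31.0 and 24.9 TPM in excess-iron Lachit. Hacha roots lay above Lachit roots in each solution. OsHMA9 was 1.59-fold lower in control root of Lachit (log2 -0.67, SE 0.11, adjusted p = 0.00114, edgeR), as the 1 gene of the 5 called there against 29.7% of all genes, and the call was lost with both organs in 1 fit (log2 -0.69, adjusted p = 0.228). In excess-iron root it was 2.12-fold lower (log2 -1.08, SE 0.12, adjusted p = 6e-05, edgeR), one of 3 called beside 46.7% of all genes (26.6% higher and 20.1% lower), all 3 lower in Lachit. The others were OsHMA2, 2.98-fold lower (log2 -1.58, SE 0.27, adjusted p = 0.000839, edgeR), and OsHMA3, 1.37-fold lower (log2 -0.45, SE 0.13, adjusted p = 0.0179, edgeR), which lost its call without Hacha excess-iron library 2 or Lachit excess-iron library 1 (adjusted p = 0.155 and 0.0613, edgeR).

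**Figure D4:**
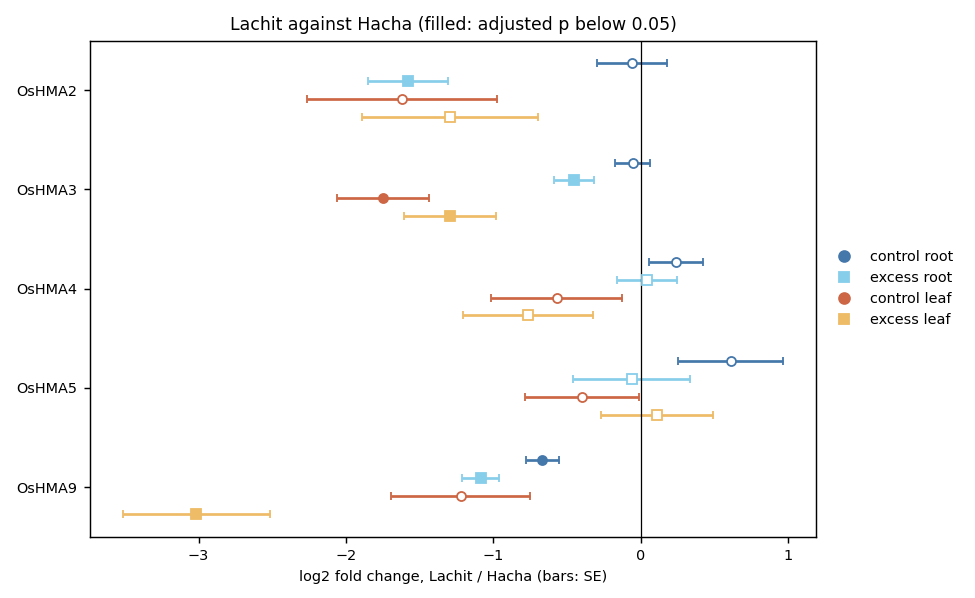
Fitted log2 fold change of Lachit against Hacha for each gene in control and excess-iron root and leaf; bars are SE and filled symbols passed an adjusted p below 0.05 in edgeR's test. All filled symbols lie below 0, with OsHMA9 in excess-iron leaf lowest at -3.02.

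The TPM values of excess-iron and control roots of OsHMA9 overlapped in each variety. In Hacha root the fitted change of 0.45 on the log2 scale (SE 0.12, adjusted p = 0.0083, edgeR) was called relative to the typical gene, but library totals gave 0.19 (adjusted p = 0.244) and log2(TPM + 1) in limma gave 0.07 (adjusted p = 0.714). In Lachit root it was 0.04 (SE 0.11, adjusted p = 0.809, edgeR), and it was -0.07 with library totals. The leaf response exceeded the root response by 3.02 in Hacha (SE 0.57, adjusted p = 0.000255, edgeR; 3.64 without control leaf library 1) and by 1.78 in Lachit (SE 0.52, adjusted p = 0.0133, edgeR; 1.11 and an adjusted p = 0.0628 without Lachit excess-iron leaf library 2). Those differences of response were called for 2 of the 5 genes in Hacha (46.3% of all genes) and for 3 in Lachit (32%; 17.3% higher), each with the higher change in leaf. The order of organs was thereby turned round in Hacha. OsHMA9 was 3.99-fold lower in leaf than in root of control plants (adjusted p = 0.000117, edgeR; log2 -2.61 without control leaf library 1) and 2.03-fold higher in leaf under excess iron (adjusted p = 0.0454, edgeR). The TPM values of these leaves and roots did not overlap, but the second call was lost with library totals (log2 0.59, adjusted p = 0.198) and when any 1 of 15 libraries was left out. In Lachit, OsHMA9 was 6.11-fold lower in leaf in control (adjusted p = 7.91e-06, edgeR) and 1.78-fold lower under excess iron, which missed the threshold (adjusted p = 0.0569, edgeR). That difference was called by edgeR with library totals (log2 -1.03, adjusted p = 0.0154) and without a filter on low counts (adjusted p = 0.045), by DESeq2 (adjusted p = 0.0495) and by limma on both log2 TPM scales (adjusted p = 0.00817 and 0.00949). It was -1.35 without Lachit excess-iron leaf library 2 and -0.52 without library 3 (adjusted p = 0.00235 and 0.224, edgeR).

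The 5 genes together gave a summed level of 271 ± 11 TPM (SD, n = 3) in control root of Hacha and 269 ± 87 (n = 3) in that of Lachit. The Lachit control sum ran from 190 to 361 TPM and was highest in library 2. OsHMA5 stood at 157 TPM there, and at 56.0 and 47.7 TPM in libraries 1 and 3. The sum was 231 ± 1.9 (n = 2) and 193 ± 43 TPM (n = 3) in excess-iron roots. In leaves the sum was 28.6 ± 11 TPM in control Hacha, 134 ± 18 in excess-iron Hacha, 16.4 ± 0.32 in control Lachit and 50.3 ± 26 in excess-iron Lachit (n = 3 each). OsHMA4 made up 54.0 ± 6.0% of the sum in control leaf of Hacha, and OsHMA9 made up 27.1 ± 7.4%. Under excess iron their order changed, to 31.1 ± 6.3% for OsHMA4 and 63.3 ± 8.3% for OsHMA9. In Lachit leaf OsHMA4 led in both solutions, with 60.5 ± 5.1% and 56.0 ± 12% (n = 3 each), and OsHMA9 had 20.9 ± 2.2% and 27.6 ± 3.2%. In root, OsHMA2 went from 17.6 ± 2.5% to 10.8 ± 1.4% in Hacha and from 15.9 ± 2.7% to 4.55 ± 0.93% in Lachit. In bulk tissue, fewer cells of a type and less RNA per cell cannot be told apart.

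**Figure D5:**
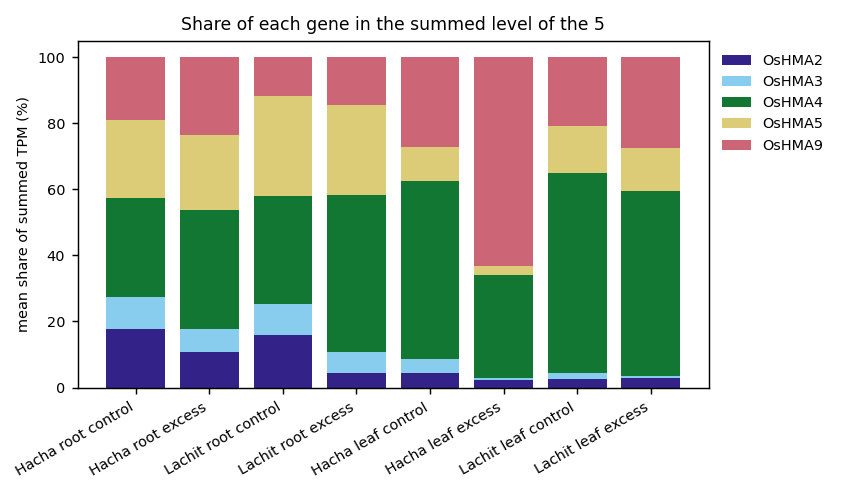
Mean share of each gene in the summed TPM of the 5, in percent, for the 8 groups; each bar adds to the whole. OsHMA9 takes 63.3% in excess-iron leaf of Hacha and 27.6% in that of Lachit.

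Within an organ, the 5 genes did not vary as 1 group. Over the 11 root libraries the Pearson r of log2 CPM (counts divided by library size with TMM scaling) was 0.92 between OsHMA2 and OsHMA3 and between -0.55 and 0.41 for every other pair. Over the 12 leaf libraries OsHMA4 and OsHMA9 had r = 0.90, OsHMA2 and OsHMA4 r = 0.89 and OsHMA2 and OsHMA9 r = 0.87, and every other pair lay between 0.08 and 0.39. These libraries share their groups and their scaling, and the values describe the libraries only.

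The genes closest to each member are named here. Each was picked for its high r among all genes compared, and how high such values run for any other gene was not tested. Over all 23 libraries, among 14014 genes with a mean of at least 10 CPM, those with the highest r were OS06G0700601 (r = 0.98) and OS07G0626500 (0.98) for OsHMA2, OS07G0589200 (0.98) and OS04G0682100 (0.98) for OsHMA3, and OS04G0659300 (0.97) and OS05G0162500 (0.97) for OsHMA4. For OsHMA5 they were OS05G0493800 (0.97) and OS02G0809800 (0.97), and for OsHMA9 OS02G0749500 (0.97) and OS08G0103300 (0.97). The difference between the organs enters all of these. Within the 11 root libraries the closest genes were OS06G0700601 for OsHMA2 (r = 0.99), OS05G0495600 for OsHMA3 (0.97), OS07G0477500 for OsHMA4 (0.91), OS08G0562100 for OsHMA5 (0.93) and OS11G0592500 for OsHMA9 (0.98). Within the 12 leaf libraries they were OS12G0566250 for OsHMA2 (0.98), OS01G0266200 for OsHMA3 (0.96), OS05G0358700 for OsHMA4 (0.99), OS04G0637000 for OsHMA5 (0.93) and OS03G0748900 for OsHMA9 (0.99). OS06G0700601, closest to OsHMA2 over all libraries and in root, carries the identifier just before it on chromosome 6. Its transcript has 1037 bases, and that of OsHMA2 in the files has 1753. It stood at 157 ± 22 TPM in control and 76.1 ± 12 TPM in excess-iron root of Hacha, and at 151 ± 34 and 36.6 ± 15 TPM in those of Lachit. Whether the models of both genes overlap or share a transcript was not tested, since positions were not used here, so the values of OsHMA2 may cover part of its message only.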

How the data were processed

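Libraries were built with version 2 of the TruSeq RNA kit, which does not mark strand, per the labels' protocols. The submitters' processing notes name bcl2fastq, kallisto and the build IRGSP-1.0, with no version or setting recorded there. The authors deposited, per library and transcript, an estimated count (not normalized) and a TPM value (scaled to effective length and library), per the file headers. A deposited table of TPM with 1 transcript per gene, in 23 columns, was left aside. Values of all 42346 transcripts were added up over 35679 genes, and counts rounded.

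edgeR 4.0.16 (R 4.3.3) was fitted over the 4 groups of an organ (27479 genes in root, 25505 in leaf) or over all 8 groups for comparisons across organs (29243 genes), after filterByExpr and TMM scaling, for 16 contrasts. All 5 genes passed the filter in each fit. DESeq2 1.42.0, limma 3.58.1 and other settings were alternatives. The fits were run on simulated counts in which few genes changed, so the scaling was not tested for the case where many genes change. Libraries were numbered within a group, since titles number them consecutively and give no pairing or batch. The named genes are the 5 members and, for each, the 2 genes of highest Pearson r over all libraries and 1 in each organ. The members, lists and tests were chosen with earlier results of these data known.

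The reference table (RefSeq, ASM3414082v1) matched 1 gene identifier and no member, so the lists of related metal transporters and of organ markers were not counted, and no positions or sequences are given.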

Additional observations from a re-analysis of the deposited data

Results flagged for a closer look

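A difference between the responses of 2 groups, by a test of the difference itself, marked the following results, all by edgeR's quasi-likelihood test on the log2 scale. The root response of OsHMA2 was lower in Lachit than in Hacha (-1.52), and the change in Hacha root alone was not called. With both organs in 1 fit the difference of root responses was not called (adjusted p = 0.164, edgeR). The leaf response of OsHMA2 was above its root response in Hacha (1.77) and in Lachit (3.73). Its Hacha call was lost when any 1 of 13 libraries was left out. The leaf response of OsHMA9 was above its root response in Hacha (3.02) and in Lachit (1.78). Its Lachit call was lost when 1 of the libraries was left out. The leaf response of OsHMA5 was above its root response in Lachit (1.51). This difference was 0.78 and not called without control library 2 of Lachit root. The call was lost when any 1 of 17 libraries was left out. Groups of 2 or 3 libraries are too small to test whether a single library lies apart, so the libraries named as standing apart are described only.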

How the results depend on the processing

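Of 80 values (5 genes in 16 contrasts), 39 were called, and no called value changed sign under any alternative run. Of 1850 alternative values, 1655 kept their direction and their side of the threshold, 84 lost a call, 74 gained one and 37 changed sign. No paired analysis was possible because the titles number the libraries consecutively and groups share no replicate number.

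The number of genes called out of 5 changed by more than 1.5 times as follows, and the cause was not tested. With both organs in 1 fit it was 0 in place of 2 for Hacha root, 0 in place of 1 for the difference of root responses, 0 in place of 1 for the varieties in control root, 4 in place of 2 for Hacha leaf, 1 in place of 0 for the difference of leaf responses and 3 in place of 1 for the varieties in control leaf. Without a filter on low counts it was 1 in place of 2 for Hacha root and 1 in place of 2 for the organ difference of the Hacha response. With DESeq2 it was 2 in place of 1 for the difference of root responses, 1 in place of 0 for that of leaf responses and 3 in place of 1 for the varieties in control leaf. With library totals it was 1 in place of 2 for the varieties in excess-iron leaf and 5 in place of 3 for the organ difference of the Lachit response, and limma on either log2 TPM scale gave the same numbers. Limma on log2(TPM + 1) and leaving out both leaf libraries that stood apart each gave 1 in place of 0 for the difference of leaf responses.

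Leaving out 1 library in turn gave 1 to 4 calls in Hacha root, 2 to 3 in Lachit root, 0 to 2 for the difference of root responses, 1 to 4 in Hacha leaf, 0 to 3 in Lachit leaf and 0 to 1 for the difference of leaf responses. For the varieties it gave 1 to 1 in control root, 2 to 3 in excess-iron root, 1 to 2 in control leaf and 2 to 4 in excess-iron leaf. For leaf against root it gave 5 to 5 in both controls, 3 to 5 in excess-iron Hacha and 4 to 5 in excess-iron Lachit, and for the organ difference of the response 1 to 3 in each variety.

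Values that changed sign were not called. Excess iron against control of OsHMA9 in Lachit root was -0.067 with library totals, -0.10 and -0.11 with limma, and -0.0073 with both organs in 1 fit. OsHMA3 in Lachit leaf was 0.048 with library totals and 0.0078 and 0.0014 with limma. OsHMA4 was 0.032 and 0.032 with limma for the difference of root responses, and -0.012, -0.012 and -0.033 for the varieties in excess-iron root with size factors as in DESeq2, with DESeq2 and with both organs in 1 fit. OsHMA4 was 0.095 with library totals and 0.11 without both leaf libraries for the difference of leaf responses, where OsHMA2 was -0.069 with limma. OsHMA5 was 0.0077 with library totals for the varieties in excess-iron root. OsHMA3 was 0.36 and 0.021 with limma for the organ difference of the Hacha response.

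With 1 library left out, values that changed sign ranged as follows. For OsHMA5 they were -0.18 to 0.029 in Hacha root, -0.58 to 0.46 in Hacha leaf, -0.95 to 0.066 for the difference of root responses, -0.13 to 0.89 for the varieties in control root, -0.19 to 0.053 in excess-iron root and -0.20 to 0.83 in excess-iron leaf, and -0.50 to 0.46 for the organ difference of the Hacha response. OsHMA9 in Lachit root ranged from -0.063 to 0.17. For the varieties, OsHMA2 ranged from -0.17 to 0.11 and OsHMA3 from -0.15 to 0.0099 in control root, and OsHMA4 from -0.17 to 0.16 in excess-iron root. For the difference of leaf responses, OsHMA2 ranged from -0.78 to 0.77 and OsHMA4 from -0.87 to 0.28.

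Over all genes, both organs in 1 fit gave 2057 calls in place of 5332 for the difference of root responses, 5116 in place of 8148 for the varieties in control root, 8133 in place of 4196 for the difference of leaf responses and 7960 in place of 4857 for the varieties in control leaf. DESeq2 gave 6488 in place of 4196 for the difference of leaf responses. Depth limits leaf values of Lachit for OsHMA3, at 13 to 35 counts per library, and for OsHMA2, at 15 to 18 per control library.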
